A study of Homo sapiens with 5 samples.

Results

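Genes of the mitochondrial oxidative phosphorylation machinery were followed across 5 expression arrays of human prostate cancer cells. The members were chosen by gene symbol alone: every named probe whose symbol starts with NDUFA, NDUFB, NDUFC, NDUFS, NDUFV, UQCR, COX4, COX5, COX6, COX7, COX8 or ATP5, or is CYC1 or an SDH subunit. The choice gave 94 genes read by 130 probes, of which 86 genes were detected on at least 1 array (detection p below 0.01), out of 11808 detected genes and 20044 named genes in all. Of these 86, 84 were detected on all 5 arrays. By class, 34 of 36 genes of complex I, 3 of 3 of complex II, 8 of 8 of complex III, 12 of 17 of complex IV and 18 of 18 of complex V were detected. The prefix also brought in 8 NDUFAF genes, which encode assembly factors of complex I rather than subunits, the retrocopy UQCRHL, and 2 detected genes annotated as not protein-coding (ATP5F1EP2 and UQCRBP1); these 11 are counted apart wherever complexes are described. COX7A2L, a supercomplex assembly factor, and ATP5IF1, an inhibitor of the ATP synthase, stayed counted within complexes IV and V. The 8 genes not detected on any array were NDUFA5, NDUFS6, COX4I2, COX6A2, COX6B2, COX7A1, COX8C and NDUFB2-AS1. NDUFA5 lay just outside the detection limit with a lowest detection p of 0.0117, and the next was NDUFS6 at 0.0974. SDHB, UQCRFS1 and NDUFA4 were not analysed here, and 0 of the 13 mitochondrially encoded subunits had a measured probe.

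The respiratory chain passes electrons from NADH (complex I) and succinate (complex II) through coenzyme Q, complex III and cytochrome c to oxygen at complex IV. Protons pumped by complexes I, III and IV return through complex V, the ATP synthase, which makes ATP. Most subunits are encoded in the nucleus, and normal prostate epithelium is known for a truncated citrate cycle that prostate cancer cells restore in part.

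The study used LNCaP, an androgen-responsive line from a prostate cancer metastasis, and LNRII, a stable derivative made with a lentivirus that drives TGFBR2, the type II TGF-beta receptor, from the CMV promoter under puromycin selection. The LNRII control culture was harvested after 3 days of vehicle, and the LNRII TGFB3 culture after 3 days with the TGF-beta ligand TGFB3 at 5 ng/ml. LNCaP cells carried either shCtr, the control hairpin, or shFOXA1, which targets the pioneer factor FOXA1 of luminal epithelium, and were taken at day 10, also after puromycin selection. The last culture carried shFOXA1 and was given 10 µM LY2157299, or galunisertib, which blocks the kinase of the type I receptor, during 3 days. All 5 cultures are labelled wild type in genotype, whether LNRII is 1 clone or a pool is not given, and for the LNCaP cultures without inhibitor the labels do not say array by array that vehicle was added.

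There was 1 array per group, so no difference below has a replicate check, a test or a p-value, and counts are made by size. Levels are log2 intensities after background correction and quantile normalization, and differences are log2 differences between a pair of arrays. Measurement error was read from how far paired probes of a gene disagree, with an SD per probe of 0.22 for a TGFB3 difference, 0.17 for FOXA1 knockdown and 0.15 for LY2157299. It leaves out the spread between cultures. The arrays detected 32.3% (LNRII control) to 38.1% of their probes, and mean intensities lay between 278 and 310. FOXA1 itself read 11.81, 11.92, 11.82, 11.26 and 11.30 on the LNRII control, LNRII TGFB3, shCtr, shFOXA1 and shFOXA1 plus LY2157299 arrays, a knockdown difference of -0.56. The probe for TGFBR2 was below detection on both LNRII arrays, and whether it lies within the introduced sequence is not given. All 8 luminal prostate markers with a named probe were detected on all 5 arrays, among them KLK2, while 0 of 4 striated muscle markers and 1 of 6 fibroblast markers were detected on any. Of the basal markers, KRT5 was not detected and KRT14 was detected on 3 arrays. KRT14 read 4.26, 4.18, 4.74, 5.35 and 5.11 in the array order just given, and was higher after knockdown. The leukocyte markers PTPRC and CD3E were not detected, and CD14 and the endothelial marker CDH5 were each detected on 1 array. CD68 and VWF were detected on all 5 arrays. CD68 read 7.74, 8.44, 7.95, 8.79 and 8.43 in the array order just given, and VWF read 7.09, 8.53, 6.57, 6.08 and 6.29. CD68 was thus higher with TGFB3 and after knockdown, and VWF was higher with TGFB3. The part of these markers in the results was not tested.

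Promoter sequence is shown for the 3 members that stood lowest with TGFB3 and for the 1 member that stood at least 2-fold higher. Each window runs from 250 bases before to 50 bases after the annotated start, 5′ to 3′ on the gene's strand, from RefSeq on GRCh38.p14. Capitals mark the matches to 4 motifs searched on both strands. The windows are chr17:48892537-48892836 (plus strand) for ATP5MC1, chr19:1383657-1383956 (plus strand) for NDUFS7, chr2:240025293-240025592 (minus strand) for NDUFA10 and chr4:46909196-46909495 (minus strand) for COX7B2.
ATP5MC1: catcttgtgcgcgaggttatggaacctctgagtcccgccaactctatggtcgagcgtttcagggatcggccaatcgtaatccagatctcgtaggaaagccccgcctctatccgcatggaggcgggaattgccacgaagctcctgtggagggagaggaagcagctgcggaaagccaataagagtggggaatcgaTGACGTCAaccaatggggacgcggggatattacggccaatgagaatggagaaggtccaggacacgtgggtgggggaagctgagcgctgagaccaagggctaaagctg
NDUFS7: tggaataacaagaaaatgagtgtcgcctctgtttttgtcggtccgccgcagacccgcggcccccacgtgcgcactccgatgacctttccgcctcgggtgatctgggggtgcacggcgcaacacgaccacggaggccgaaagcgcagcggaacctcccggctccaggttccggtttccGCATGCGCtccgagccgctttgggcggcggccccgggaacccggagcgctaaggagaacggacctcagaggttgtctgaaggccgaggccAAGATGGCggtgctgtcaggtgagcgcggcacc
NDUFA10: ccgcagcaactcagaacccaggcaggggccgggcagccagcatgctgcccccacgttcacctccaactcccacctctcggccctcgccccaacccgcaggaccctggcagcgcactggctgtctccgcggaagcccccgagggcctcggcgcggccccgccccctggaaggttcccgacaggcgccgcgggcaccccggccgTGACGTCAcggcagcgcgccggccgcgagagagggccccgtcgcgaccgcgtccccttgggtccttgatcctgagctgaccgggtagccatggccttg
COX7B2: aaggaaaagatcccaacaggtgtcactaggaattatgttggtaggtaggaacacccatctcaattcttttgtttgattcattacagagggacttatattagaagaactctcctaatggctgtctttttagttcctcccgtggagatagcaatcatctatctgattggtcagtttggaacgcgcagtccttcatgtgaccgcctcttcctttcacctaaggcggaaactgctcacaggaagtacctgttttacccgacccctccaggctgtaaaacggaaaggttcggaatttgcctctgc

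The motifs were those of NRF1 and GABPA, activators of many nuclear genes for mitochondrial proteins, of YY1, and of CREB1, the cyclic AMP response factor. ATP5MC1 and NDUFA10 held the CREB1 letters TGACGTCA, starting at positions -57 and -48 from the start site. NDUFS7 held the NRF1 letters GCGCATGC on the opposite strand at position -73 and the YY1 letters AAGATGGC at position 18, next to the first bases of the transcript. The COX7B2 window held none of the letters searched. Among 22199 windows of protein-coding genes, 3.74% held the NRF1 letters, against 16.3% of the 86 windows of 70 members that were in the table. The corresponding shares were 12.8% and 27.9% for the GABPA letters CCGGAAG, 3.53% and 16.3% for YY1, and 2.26% and 4.65% for CREB1. The 4 members with the CREB1 letters were ATP5MC1, ATP5ME, NDUFA10 and NDUFB2, and their TGFB3 differences were -0.85, -0.35, -0.58 and -0.03. The 13 members with the NRF1 letters had a median TGFB3 difference of -0.15, and the 57 without had -0.13. For GABPA the medians were -0.12 with the letters and -0.17 without, for YY1 -0.19 and -0.13, and for CREB1, with 4 members, -0.46 and -0.13. The motifs and the windows printed were chosen with the array values known, so these values describe sequence content and nothing more.

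With TGFB3 in LNRII, most oxidative phosphorylation genes stood slightly lower than in the vehicle culture. Of 86 members 65 were below 0, which is 75.6% against 44.9% of all 10711 genes measured (a further 783 stood at exactly 0). Over genes detected on all 5 arrays, 65 of 84 members and 4471 of 9025 genes were below 0. The member median was -0.13 against 0.00 for all genes. The differences were small. No member was 2-fold lower (1.16% of all genes), 2 were at least 1.5-fold lower (6.64% of all genes), namely ATP5MC1 and NDUFS7, and 1, COX7B2, was at least 1.5-fold higher (6.6% of all genes) and at least 2-fold higher (1.87%). By size, therefore, fewer members than genes at large lay far from 0, while more of them lay on the lower side. Paired probes also disagreed less for members, with an SD per probe of 0.14 against 0.22 for all genes with a pair. The part of measurement error in the fewer large differences was not tested. In bulk RNA, fewer cells of a type and less RNA per cell cannot be told apart.

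**Figure D1:**
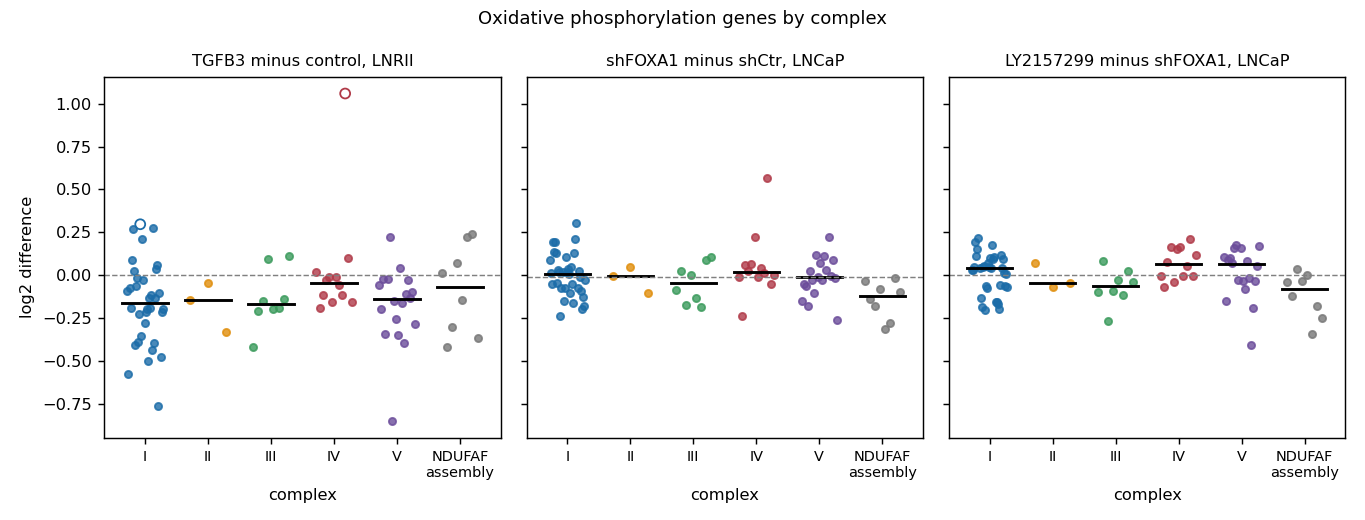
Log2 difference of each detected member (points), grouped by complex, for TGFB3 against vehicle in LNRII, shFOXA1 against shCtr in LNCaP, and LY2157299 against shFOXA1 alone in LNCaP; black bars are medians over members, dashed lines medians of all genes, and open circles lower bounds. With TGFB3 the medians of complexes I, II, III and V lay between -0.17 and -0.14, and after knockdown or with LY2157299 the medians of the 5 complexes lay between -0.06 and 0.06.

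In complex I, the NADH dehydrogenase, 26 of 34 members were below 0 with TGFB3 and the median was -0.16. NDUFS7, which carries the iron-sulphur cluster nearest the coenzyme Q site, read 10.41 with vehicle, 9.65 with TGFB3, 10.08 with shCtr, 9.99 with shFOXA1 and 10.08 with shFOXA1 and LY2157299. The TGFB3 difference of -0.76 corresponds to 1.70-fold, with the TGFB3 array the lowest of the 5 and the vehicle array the highest. NDUFA10, an accessory subunit of the membrane arm, read 9.08, 8.50, 8.68, 8.69 and 8.72 in the same order, a TGFB3 difference of -0.58, and its second probe gave -0.49. NDUFB6, another accessory subunit of the membrane arm, read 10.05, 9.55, 9.90, 9.79 and 9.97, and its probes gave -0.50 and -0.40. For both genes the TGFB3 array was the lowest, and the 3 LNCaP arrays lay between the LNRII pair. The 6 measured core subunits of the matrix arm, the path of electrons from NADH, were all below 0, with a median of -0.31. Besides NDUFS7 these were NDUFV1, which binds the flavin (-0.48), NDUFS1 (-0.40), NDUFV2 (-0.21), NDUFS3 (-0.13) and NDUFS8 (-0.11). NDUFV1 read 10.53, 10.05, 9.80, 9.68 and 9.62, so that here both LNRII arrays stood above all 3 LNCaP arrays. NDUFS1 lay near the detection floor, at 5.73, 5.34, 5.08, 5.39 and 5.19, and without background correction its TGFB3 difference shrank to -0.15. On the higher side were NDUFA2 at 0.27, NDUFC2 at 0.27 and NDUFB1, all 3 accessory subunits. NDUFC2 lay near the detection floor, at 5.22 with vehicle and 5.49 with TGFB3. Its difference ranged from 0.10 to 0.45 under the alternatives, against 0.23 to 0.29 for NDUFA2. NDUFB1 was not detected with vehicle, and its difference was at least 0.30, or 0.54 in the authors' processed table.

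Complex II, succinate dehydrogenase, which links the citrate cycle to the chain, had 3 of 3 measured members below 0 with a median of -0.14. SDHA, the flavoprotein that oxidises succinate, read 8.82, 8.68, 8.80, 8.79 and 8.87 in the array order above. The membrane anchor SDHC read 9.51, 9.46, 9.51, 9.56 and 9.49, and its second probe differed by -0.32 where the first differed by -0.04. The other anchor, SDHD, read 9.88, 9.55, 9.69, 9.58 and 9.54, a TGFB3 difference of -0.33. SDHA and SDHC differed by less than the probe SD of 0.22 over all genes with a pair, by their brighter probes. The LNCaP arrays of SDHD stood nearer to the TGFB3 array than to the vehicle array.

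In complex III, the cytochrome bc1 complex, 6 of 8 members were below 0 with TGFB3, with a median of -0.17 that became -0.10 when all probes of a gene were averaged. CYC1, the cytochrome c1 subunit that hands electrons to cytochrome c, read 11.29, 10.88, 10.93, 10.84 and 10.74, a difference of -0.42. The vehicle array was the highest and the other 4 lay close together. UQCR10 differed by -0.21 by its brightest probe, but by 0.01 and 0.02 by its other detected probes. The core proteins UQCRC1 and UQCRC2 differed by -0.19 each. UQCRQ, a small subunit, was higher by 0.11 and UQCRB by 0.09, while UQCRH, the hinge protein, stood at -0.14. The second UQCRH probe gave 0.05.

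Complex IV, cytochrome c oxidase, had the median closest to 0 of the 5 complexes. Of its 12 detected members 9 were below 0 with TGFB3, but the median was -0.04 and moved to -0.09 in the alternative that shifted it most. The lowest were COX5A at -0.19, COX6C at -0.15 and COX8A at -0.15, and the highest after COX7B2 were COX7C at 0.10 and COX4I1 at 0.02. COX7B2, a testis-enriched paralogue of COX7B, was the exception to the small differences. It was not detected with vehicle (4.80, detection floor 5.03) and read 6.09 with TGFB3, 5.16 with shCtr, 5.73 with shFOXA1 and 5.93 with shFOXA1 and LY2157299. Its TGFB3 difference was at least 1.06, at least 2.08-fold, and the measured values differed by 1.29. The difference depended on the processing, at 0.42 without background correction, 0.61 with an offset of 50 and 1.62 in the authors' processed table. The ubiquitous paralogue COX7B read 11.38, 11.27, 10.87, 10.88 and 10.94 and differed by -0.12. Of the other paralogue sets of this complex, the tissue-restricted forms COX4I2, COX6A2, COX6B2, COX7A1 and COX8C were not detected on any array. Their ubiquitous counterparts COX4I1, COX6A1, COX6B1, COX7A2 and COX8A were detected on all 5, with TGFB3 differences between -0.15 and 0.02. COX7A2L, an assembly factor of respiratory supercomplexes that resembles COX7A2, differed by -0.06.

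**Figure D2:**
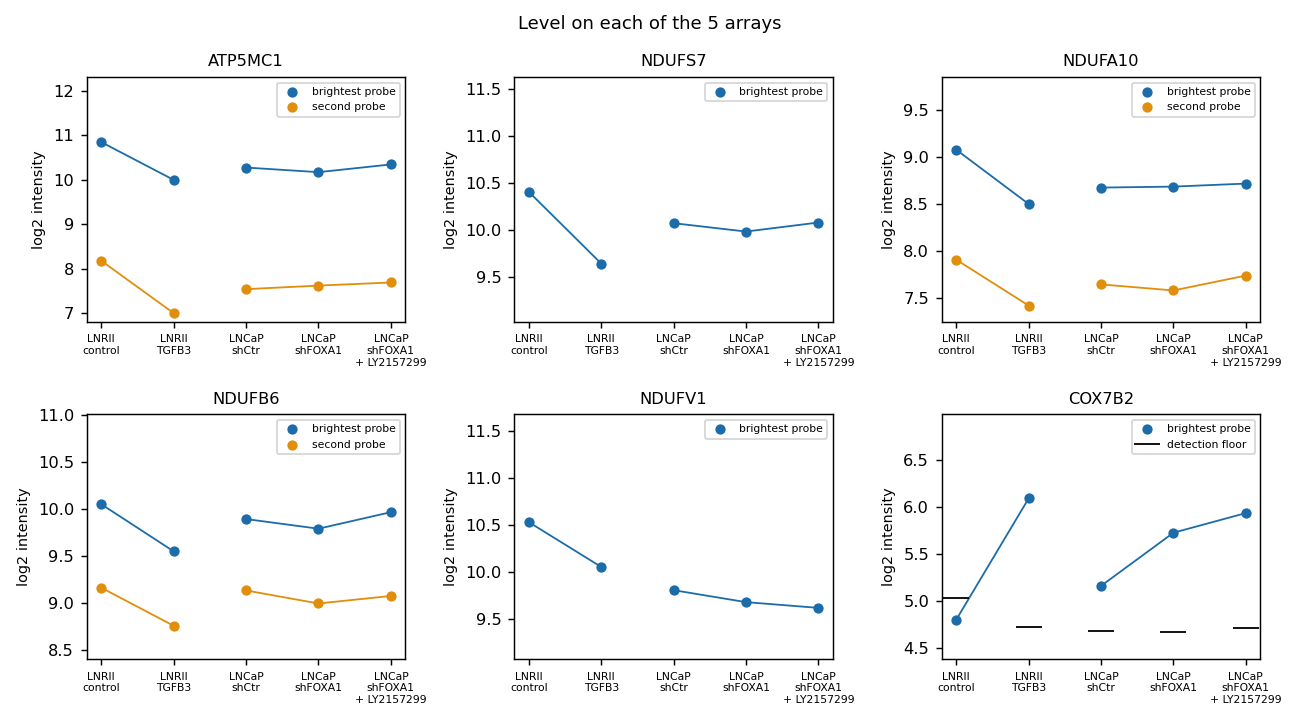
Log2 intensity of 6 members on each of the 5 arrays, with every detected probe of a gene drawn as its own line and lines broken between the 2 cell lines. Both ATP5MC1 probes were lower with TGFB3 than with vehicle, by 0.85 and 1.18, and COX7B2 was detected on 4 of the 5 arrays.

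Complex V, the ATP synthase, had 16 of 18 members below 0 with TGFB3 and a median of -0.14. ATP5MC1, one of the genes for the c subunit whose ring turns as protons pass, read 10.85 with vehicle, 10.00 with TGFB3, 10.28 with shCtr, 10.17 with shFOXA1 and 10.35 with shFOXA1 and LY2157299. Its second probe, designed against another transcript record, read 8.18 with vehicle and 7.54, 7.62 and 7.69 in the LNCaP cultures. The TGFB3 differences of the probes were -0.85 (1.80-fold) and -1.18, the TGFB3 array was the lowest and the vehicle array the highest by both, and the 3 LNCaP arrays lay between. The other genes that encode the same mature c subunit differed less, ATP5MC2 by -0.15 (11.63, 11.48, 11.62, 11.74 and 11.71) and ATP5MC3 by -0.25 (6.13, 5.88, 5.69, 5.68 and 5.84). ATP5MJ and ATP5ME, small subunits of the membrane part, stood at -0.39 and -0.35. In the catalytic head, ATP5F1A, the alpha subunit, read 12.86, 12.80, 12.91, 12.76 and 12.86, and ATP5F1B, the beta subunit, read 13.80, 13.60, 13.67, 13.62 and 13.47. The ATP5F1B difference of -0.20 became -0.46 when arrays were centred on their medians without quantile normalization. ATP5IF1, the inhibitor that stops the enzyme from running backwards, had the highest difference of the class, at 9.94 with vehicle, 10.17 with TGFB3, 9.57, 9.54 and 9.70. Its probes gave 0.22 and 0.36. ATP5MF stood at 0.04 by its brighter probe and -0.20 by the second, and ATP5F1C, the central stalk gamma subunit, at -0.02.

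For 24 members a second probe could be read in both LNRII cultures. The probes of a gene gave TGFB3 differences of the same sign in 19 of 24 cases, with medians of -0.14 for the brighter and -0.15 for the second probes. Their SD per probe was 0.14, against 0.22 for all 2222 genes with a pair. Across these genes, which are not independent replicates, Pearson's r between the probes was 0.85. NDUFV3, a flavoprotein-arm subunit of complex I, was a case of disagreement, with -0.20 by one probe and 0.33 by the other, which target different transcript records. The signs also differed for ATP5F1A, ATP5MF, UQCR10 and UQCRH.

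**Figure D3:**
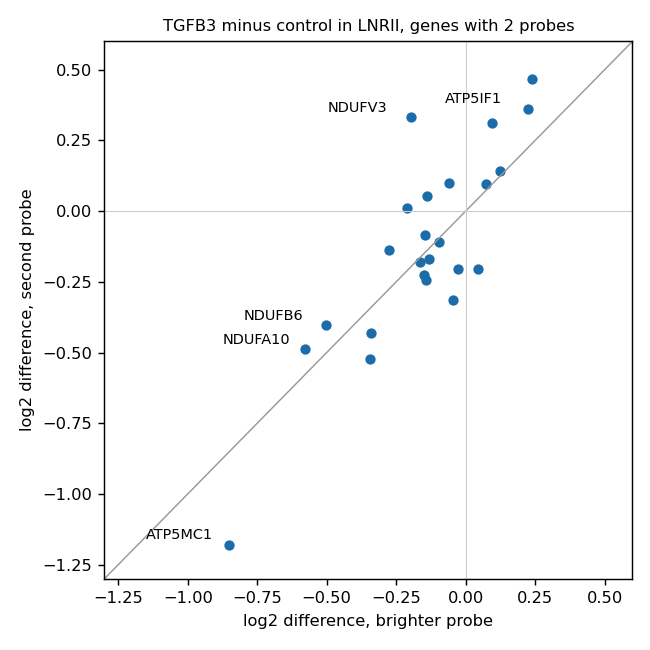
TGFB3 log2 difference of the brighter probe (x axis) against the second probe (y axis) for the 24 members with a pair of detected probes; the grey line marks equal values. ATP5MC1 lies farthest down on both axes at -0.85 and -1.18, and 19 of 24 genes have the same sign by both probes.

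The vehicle array of LNRII was itself high for these genes. Among the 84 members detected on all 5 arrays, the median deviation from the gene's own mean over the arrays was 0.10 on the LNRII control array, -0.05 on the TGFB3 array, -0.01 with shCtr, -0.04 with shFOXA1 and -0.01 with LY2157299. The corresponding medians over 9025 genes lay between -0.01 and 0.01. The LNRII control array was the highest of the 5 for 41 of 84 members, against 2622 of 9025 genes, and the TGFB3 array was the lowest for 30 of 84, against 1994 of 9025 genes. In complex V the LNRII control array was highest for 13 of 18 members, in complex I for 18 of 33 and in complex III for 5 of 8. This array also detected the smallest share of probes, 32.3%. A lower level with TGFB3 and a higher level on this 1 vehicle array cannot be told apart with 1 array each. Of the 65 members below 0 with TGFB3, LNCaP with shCtr read nearer to the TGFB3 array than to the vehicle array for 34 (52.3%), and over all genes below 0 the share was 51.8%.

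**Figure D4:**
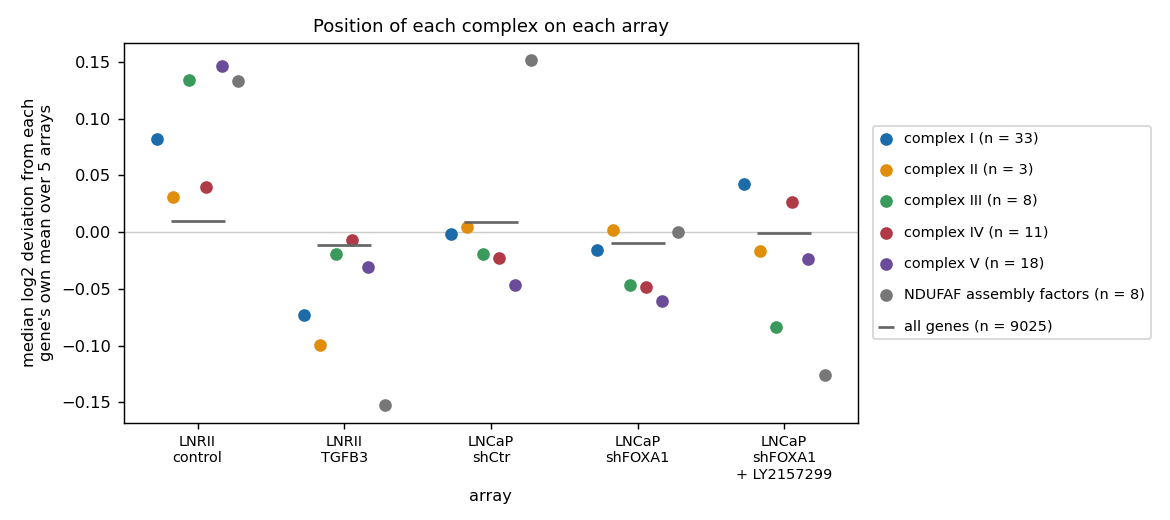
Median deviation of each complex from the mean of its genes over the 5 arrays (log2, y axis) on each array (x axis), over members detected on all 5 arrays; grey points are the NDUFAF genes, and horizontal dashes give the median of all 9025 such genes. On the LNRII control array all 5 complexes lay above the dash, with complex V at 0.15 and complex III at 0.13.

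The untreated lines were also compared directly, with the same LNRII control array. In LNRII control against LNCaP shCtr, 54 of 86 members were above 0 (46% of all genes) with a median of 0.11 against 0.00, and complex V had a median of 0.19 with 16 of 18 members above 0. The complex III median was 0.21. At least 1.5-fold higher in LNRII were NDUFV1 (0.72) and NDUFS1 (0.65), 2 of 86 against 9.54% of all genes. At least 1.5-fold lower were UQCR11 (-0.72), a small complex III subunit, and the assembly factor NDUFAF6 (-0.94), 2 of 86 against 10.2%. None was 2-fold higher (2.18% of all genes) or lower (3.07%). The lines differ in the lentivirus received, the receptor and the time in culture, which cannot be told apart here. The probes of a gene agreed in sign for 16 of 24 members in this comparison, with an SD per probe of 0.31 over these members. With the mean of all detected probes the medians were 0.13 for complex III and 0.19 for complex V. The brighter and second probes gave 0.38 and -0.82 for ATP5IF1, 0.24 and -0.42 for ATP5F1D, 0.55 and -0.02 for UQCR10, and 0.13 and -0.45 for UQCRB.

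After FOXA1 knockdown in LNCaP the oxidative phosphorylation genes stood near their control level. Of 86 members 48 were below 0 (52.3% of all 11132 genes) and 37 above (47.3%), and the median of -0.01 equalled that of all genes. It became 0.02 with median centring in place of quantile normalization, which moved the median of all genes to 0.02 as well. No member was 1.5-fold higher (3.31% of all genes) or lower (1.84%), and accordingly 0 were 2-fold higher (1.11%) or lower (0.377%). In the authors' deposited values and with median centring, COX7B2 alone passed 1.5-fold. COX7B2 stood at 5.73 against 5.16, a difference of 0.56 that ranged from 0.21 without background correction to 0.87 in the authors' processed table. The next highest was NDUFS1 at 0.31, which ranged from 0.10 to 0.53 under the same alternatives.

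By complex, the knockdown medians were 0.01 for complex I (16 of 34 below 0), -0.00 for complex II (2 of 3), -0.04 for complex III (4 of 8), 0.02 for complex IV (4 of 12) and -0.01 for complex V (11 of 18). In complex I the accessory subunit NDUFA9, which binds NADPH, was the lowest at -0.24, followed by NDUFS8 at -0.20 and NDUFV2 at -0.18. NDUFC2 at 0.21 (0.09 to 0.29 under the alternatives) and NDUFA2 at 0.19 were the highest after NDUFS1. Of the 6 core redox subunits 5 were below 0, NDUFS1 being the exception, with a median of -0.11. SDHA differed by -0.00, SDHC by 0.05 and SDHD by -0.10. In complex III UQCRC2 and UQCR11 stood at -0.18, UQCRC1 at -0.13 and CYC1 at -0.09, against UQCRQ at 0.11 and UQCRH at 0.09. In complex IV COX5A, a matrix-side subunit, read 12.55 with shCtr, 12.32 with shFOXA1 and 12.25 with the inhibitor, a knockdown difference of -0.24. COX6C went the other way, with 12.18, 12.40 and 12.55, a knockdown difference of 0.22. In complex V ATP5PO, the peripheral stalk protein that confers oligomycin sensitivity, stood at -0.26, ATP5F1D at -0.18 and ATP5F1A at -0.15. ATP5MK at 0.22, ATP5MC2 at 0.12 and ATP5MG at 0.11 were the highest. ATP5MC1, lowest with TGFB3, stood at -0.10 by its brighter probe and 0.08 by the second, and NDUFS7 at -0.09. The probes of a gene agreed in sign for 15 of 24 members after knockdown. Among the genes named here, the second probe gave the opposite sign for ATP5MC2 (-0.14), SDHC (-0.24) and UQCRH (-0.10), as well as for ATP5MC1, and SDHA's gave 0.11.

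The complex I assembly factors stood on one side. All 8 NDUFAF genes were below 0 after knockdown (52.3% of all genes), with a median of -0.12. The shCtr array was the highest of the 5 for 6 of these 8, against 1552 of the 9025 genes detected on all 5 arrays. A lower level with shFOXA1 and a higher level on that 1 shCtr array cannot be told apart. NDUFAF5, which hydroxylates NDUFS7, read 9.25 with shCtr, 8.93 with shFOXA1 and 8.94 with LY2157299, a knockdown difference of -0.31, and a second probe gave -0.42. NDUFAF6 read 8.46, 8.19 and 7.84, a knockdown difference of -0.28. NDUFAF3 differed by -0.18, NDUFAF2 by -0.14, NDUFAF8 by -0.10, NDUFAF4 by -0.08, NDUFAF1 by -0.03 and NDUFAF7 by -0.02. Thus 5 of the 8 lay within the probe SD of 0.17 over all genes with a pair. Over the 24 members with a pair the SD was smaller, 0.08, and NDUFAF2 and NDUFAF8 lay beyond it. In a wider list of complex I assembly genes that includes these 8, 13 of 16 were below 0. With TGFB3, which shares no array with the knockdown, 4 of the 8 NDUFAF genes were below 0, among them NDUFAF2 at -0.42.

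With LY2157299 added to the knockdown the members also stood near their level without it. Of 86 members 47 were above 0 (50.7% of all 11002 genes) and 39 below (48.2%), with a median of 0.02 against 0.00, which became -0.02 with median centring. None was 1.5-fold higher (0.636% of all genes) or lower (1.24%), and so 0 were 2-fold higher (0.0545%) or lower (0.209%). The medians were 0.04 in complex I (12 of 34 below 0), -0.04 in complex II, -0.06 in complex III, 0.06 in complex IV and 0.06 in complex V. ATP5MK, a small subunit that stabilises the ATP synthase dimer, was the lowest subunit at -0.41, reading 6.76 with shCtr, 6.99 with shFOXA1 and 6.58 with the inhibitor, and its difference was -0.25 without background correction. UQCR11 read 7.18, 7.01 and 6.74, a difference of -0.27 with the inhibitor. In complex I NDUFB1 and NDUFS1 stood at -0.20 and NDUFA8 at -0.18, and NDUFA3 at 0.22, NDUFA12 at 0.19 and NDUFB6 at 0.18. NDUFB1 and NDUFS1 lay near the detection floor, and each ranged from -0.32 to -0.07 under the alternatives, against -0.25 to -0.18 for NDUFA8. In complex III UQCRC2 stood at -0.12, CYC1 at -0.10, UQCRC1 at -0.03, UQCR10 at 0.09 and UQCRH at 0.03. In complex IV COX7B2 was highest at 0.21, then COX6A1 at 0.17 and COX7A2 at 0.16, with COX5A lowest at -0.07, COX6B1 at -0.04 and COX4I1 at -0.01. In complex V ATP5MC1 and ATP5PO at 0.17 and ATP5IF1 at 0.16 were highest, and ATP5PB at -0.19 and ATP5F1B at -0.15 followed ATP5MK on the lower side. SDHA stood at 0.07, SDHC at -0.07 and SDHD at -0.04. The second probes agreed in sign with the first for 12 of 24 members, and the SD per probe over these members was 0.11. Among the genes named here, the second probe gave the opposite sign for SDHA (-0.09), SDHC (0.14), UQCR10 (-0.06) and UQCRH (-0.15).

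Knockdown with inhibitor against shCtr shares arrays with both preceding comparisons. Of 86 members 44 were above 0 (48.3% of all 11019 genes) and 42 below (50.7%), with a median of 0.00. At least 1.5-fold apart were COX7B2 at 0.77 (1 of 86 against 3.04% of all genes), and NDUFAF6, at -0.62 (1 of 86 against 2.34%), and 0 members were 2-fold higher (0.917%) or lower (0.517%). All 8 NDUFAF genes were again below 0 (50.7% of all genes), with a median of -0.23, measured from the same shCtr array as the knockdown difference. COX6C stood at 0.37, NDUFA12 at 0.38, UQCR11 at -0.44 and COX5A at -0.30.

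Genes around the chain were read from lists of assembly factors, carriers, citrate cycle, glycolysis and regulators. The share of all genes below 0 with TGFB3, to set beside each count here, was 44.9%. Among genes detected on all 5 arrays it was 4471 of 9025. With TGFB3, 16 of 19 electron carrier and nucleotide exchange genes were below 0, with a median of -0.30, led by the coenzyme Q synthesis genes COQ8A (-0.87) and COQ3 (-0.82), against ETFB, an electron transfer flavoprotein subunit, at 0.42. Of 14 citrate cycle genes 11 were below 0, with a median of -0.18; DLAT of the pyruvate dehydrogenase complex stood at -0.75, IDH3A at -0.59 and IDH3G at 0.41. Of 11 regulators of mitochondrial biogenesis 9 were below 0, with a median of -0.25. PPARGC1A, a coactivator of mitochondrial gene programmes, was detected only on the LNRII control array at 5.80, so its difference was -1.07 or lower. Detected on that array alone, PPARGC1A could not have stood above 0, and it is among the 9. MYC stood at -0.66. Mitochondrial ribosomal protein genes were below 0 in 64 of 76 cases, with a median of -0.28, against 44 of 78 cytosolic ribosomal protein genes and a median of -0.02. Glycolysis genes were below 0 in 17 of 19 cases, with a median of -0.21, with HK2 at -1.11 and LDHB at -0.72. In LNRII control against LNCaP shCtr, 16 of 20 glycolysis genes were above 0 (46% of all genes) and 4 below, with a median of 0.27. LDHB, the only glycolysis gene at least 2-fold apart there, stood lower, at 7.85 against 10.62, a difference of -2.78. There the medians of the carriers, citrate cycle, regulators and ribosomal protein lists lay between 0.00 and 0.11. For these lists too, a lower level with TGFB3 and a higher level on the 1 vehicle array cannot be told apart. The member median with TGFB3, -0.13, was nearer 0 than those of the carriers, the citrate cycle, the regulators, the mitochondrial ribosomal proteins and glycolysis. Of the assembly lists, complex I genes had 9 of 16 below 0 (median -0.11), those of complexes II, III and V 10 of 13 (-0.25) and those of complex IV 12 of 21 (-0.03).

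**Figure D5:**
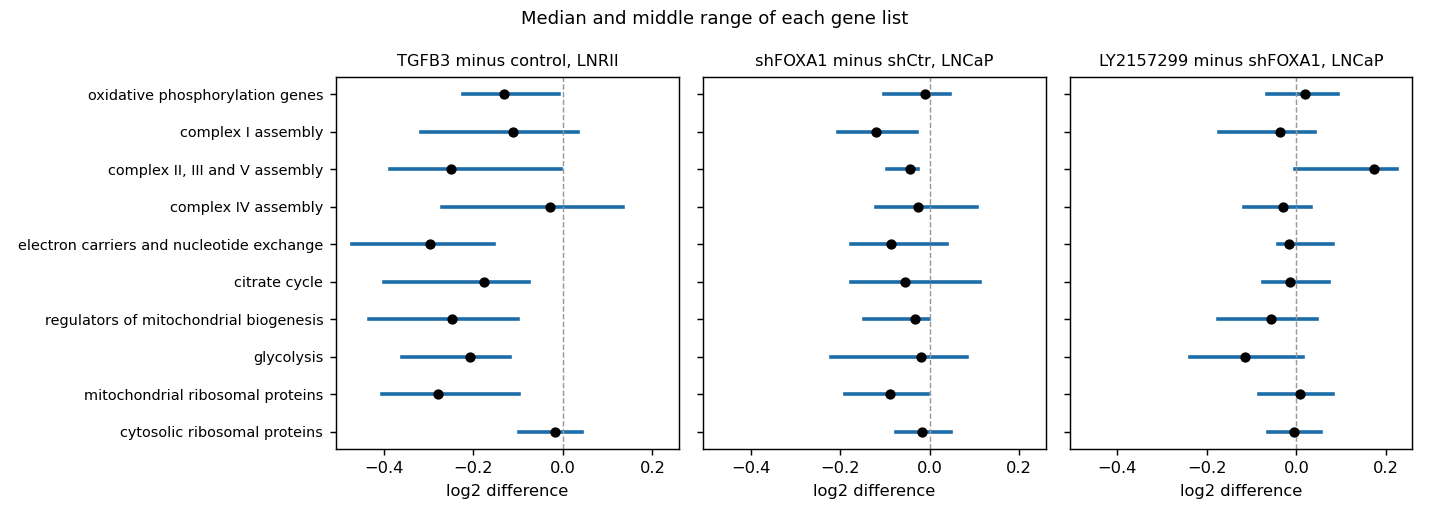
Median log2 difference (black points) and middle range from the lower to the upper quartile (bars) of the members and of each surrounding list, for TGFB3 against vehicle, shFOXA1 against shCtr, and LY2157299 against shFOXA1 alone. With TGFB3 the medians reached -0.30 for electron carriers and -0.28 for mitochondrial ribosomal proteins, and cytosolic ribosomal proteins stood at -0.02.

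After FOXA1 knockdown the medians of these lists lay between -0.12 (complex I assembly) and -0.02 (glycolysis and cytosolic ribosomal proteins). Mitochondrial ribosomal protein genes were below 0 in 62 of 76 cases (52.3% of all genes) with a median of -0.09. Complex II, III and V assembly genes were below 0 in 11 of 13 with a median of -0.04. The citrate cycle list split, with PDHA1 at -0.26 and IDH3A at 0.37, as did the regulators, with POLRMT, the mitochondrial RNA polymerase, at -0.33 and TFB1M at 0.52. With LY2157299 the complex II, III and V assembly genes were above 0 in 9 of 13 cases (50.7% of all genes), with a median of 0.17. The other list medians lay between -0.11 (glycolysis) and 0.01 (mitochondrial ribosomal proteins).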

How the data were processed

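RNA of 5 cell cultures was read on 5 Illumina bead arrays of 47306 probes. The deposited intensity of each probe carries no between-array normalization, per the file headers. A detection p-value against negative controls stands beside it in the deposited table. The arrays were read with GenomeStudio, per the submitters' processing notes; the sources used here do not give how the authors made their processed intensity table, which served only as an alternative. The platform table names 1 symbol for 30107 probes, several for 8 and none for 17191; all 94 member genes matched by Entrez identifier in RefSeq (GRCh38.p14). Normalization used limma 3.58.1 in R 4.3.3 (neqc, offset 16, quantile normalization over 5 arrays, log2) and tabulated with Python 3.11.15, pandas 2.3.3 and numpy 2.4.6, after a check on simulated data. Each gene was read by its brightest probe among those detected (p below 0.01) on at least 1 array, and was compared wherever either array of the pair detected it. An undetected dim side was raised to the array's detection floor (log2 4.67 to 5.03), which makes the difference a bound, written "at least". Bounds pointing against the detected side were set to 0. Signal above background limits how small a level can be compared, and precision is limited by the array number.

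With 1 array per group no test was possible; counts use 2-fold, 1.5-fold and the sign. The named genes are, per complex and comparison, the 3 highest and 3 lowest members, any member 1.5-fold apart, fixed redox, paralogue and c subunit sets, and at most 2 genes in each direction per surrounding list; any further NDUFAF gene, and members named for a motif, a probe disagreement or the last comparison of knockdown with inhibitor, were chosen after their values were seen. The members and lists were chosen with earlier results of these data known. Alternatives were no background correction, offset 50, median centring, quantile normalization within each line, the authors' processed table, the mean of probes, detection on both arrays and detection p below 0.05.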

Additional observations from a re-analysis of the deposited data

How the results depend on the processing

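Of the medians and counts over all members, the complexes and the NDUFAF genes, recomputed under 8 alternatives, 460 stayed within the probe SD, or for counts within 1.5 times, and 20 did not. The SD of a single probe is wide for a median. For TGFB3 it was 0.22, where the median over all members was -0.13. A median could thus reach 0 and still count among the 460, so the ranges are the closer guide. The TGFB3 median over all members ranged from -0.19 to -0.11, with 63 to 72 of 86 members below 0. For ATP5MC1 the TGFB3 difference ranged from -1.02 to -0.81, for NDUFS7 from -0.80 to -0.71 and for COX7B2 from 0.42 to 1.62. The 20 values are counts of few members. With TGFB3, the count 1.5-fold higher was 0 without background correction or when detection on both arrays was required, the count 1.5-fold lower was 4 in the authors' table, the count 2-fold higher was 0 without background correction, with offset 50, with median centring or with detection on both arrays, and the count 2-fold lower was 1 with the mean of probes. After knockdown, 1 member stood 1.5-fold higher with median centring and in the authors' table. For knockdown with LY2157299 both 1.5-fold counts were 0 without background correction and with offset 50, and 1 member was 2-fold higher in the authors' table. Between the lines, both 1.5-fold counts were 1 without background correction and with offset 50, and the count lower was 4 in the authors' table. Requiring detection on both arrays drops COX7B2 by construction, as it was undetected with vehicle. COX7B2, the only member counted higher with TGFB3, fell to 0.42 without background correction, below 1.5-fold, and to 0.61 with offset 50, below 2-fold. The member 2-fold lower with the mean of probes was ATP5MC1, whose probes gave -0.85 and -1.18. The cause was not tested for the other counts. The medians over all members of knockdown and of LY2157299, which ranged from -0.02 to 0.02, took either sign, as did that of the NDUFAF genes with TGFB3 (-0.08 to 0.05). No paired analysis was possible because each group held 1 array, and for the same reason no array could be left out. Small differences of dim probes are limited by signal over background.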

Other observations

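Retrocopies and pseudogene transcripts of these families were detected on all 5 arrays. ATP5F1EP2 read 13.04, 13.16, 13.14, 13.05 and 13.17 in the order LNRII control, LNRII TGFB3, shCtr, shFOXA1 and shFOXA1 with LY2157299, and UQCRHL read 12.87, 12.84, 12.61, 12.47 and 12.47. Whether their probes also read the parent genes ATP5F1E and UQCRH was not tested. With TGFB3 ATP5F1EP2 differed by 0.12 where ATP5F1E differed by -0.02, UQCRHL by -0.03 where UQCRH differed by -0.14, and UQCRBP1 by 0.07 where UQCRB differed by 0.09.

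The TGFB3 and FOXA1 knockdown differences share no array, though all arrays were normalized together. Across the 86 members, which are not independent replicates, Pearson's r between them was 0.39 and Spearman's rho 0.26, with 36 members below 0 in both. Across all 10180 genes measured in both, r was 0.41 and rho 0.37, with 3102 below 0 in both.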
